A study of Solanum lycopersicum with 12 samples.

Results

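In wild-type (WT) tomato fruit, 638 genes that met the level limit below rose at least 2-fold between the breaker stage and 7 days later. Of these, 123 stood near the WT level in slnor fruit at breaker yet reached at most a ratio of 0.5 to WT afterwards. These 123 genes, of 34075 in the count table, are described here. They were chosen from measured values. Counts were scaled to CPM (count over library total, times 1e6), and the 3 libraries of each group were averaged with 0.5 CPM added. A member had a WT mean of at least 5 CPM 7 days after breaker, the level limit. Its WT ratio of later to earlier stage was at least 2. The 638 genes, called WT late risers, are those that met these limits. For a member the ratio of slnor to WT was at most 0.5 at the later stage and over 0.5 and under 1.5 at breaker. Every ratio below is on this offset scale, and because the selection used all 4 groups, the levels and ratios are a description with no test.

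RNA was taken from tissue labelled only as fruit of Solanum lycopersicum cultivar Ailsa Craig, grown in a controlled greenhouse. The groups were WT at breaker, slnor at breaker, WT at breaker plus 7 days (B7) and slnor at B7, with 3 libraries each and 12 in all. The slnor plants carry a CRISPR mutation of the NAC transcription factor gene NOR in the Ailsa Craig background, and the labels do not give the lesion, the number of lines or whether the replicates came from separate plants, so any p-value here measures a spread that may be technical. Library totals ran from 50714230 to 69124795 counts, and the least counted member had 57 counts in any WT B7 library.

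Tomato is a climacteric fruit. At breaker its green skin begins to turn, and from then on ethylene production and respiration rise, chloroplasts turn into carotenoid-filled chromoplasts, and walls soften. NOR is a NAC-domain transcription factor needed for normal ripening. Genes that rise after breaker therefore include late events of pigment, plastid, respiratory and stress metabolism, in which small heat-shock proteins (chaperones that keep other proteins from aggregating) and the alternative oxidase of mitochondria are long known in fruit.

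Of the 638 WT late risers, 197 (30.9%) stood at a slnor to WT ratio of at most 0.5 at B7. The 123 members made up 62.4% of these 197, while 39 were already at or under 0.5 at breaker and 35 were at or over 1.5 at breaker. The median member stood at 27.2 CPM in WT at B7, with a range from 5.02 to 22086 CPM, and 53 members were under 20 CPM there. The median WT ratio of B7 to breaker was 3.58 (range 2 to 66.4), and 21 members were at 10 or more. The median ratio of WT to slnor at B7 was 2.88 (range 2.01 to 24.5), and 30 members had a slnor to WT ratio of at most 0.2.

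The word "lost" describes the members only in part. In slnor the median ratio of B7 to breaker was 1.52, from 0.362 to 12.7, against 0.972 over all 12305 genes tested at the same WT level and 1.72 over the 441 WT late risers kept above 0.5. Measured as a share of the WT increase in CPM, slnor showed a median of 11.5%. For 54 members it was under 10%, and for 26 of those it was below 0, meaning that slnor stood lower at B7 than at breaker. At the other end, 37 members still had a slnor ratio of at least 2, and 3 had a ratio of at most 0.5.

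**Figure D1:**
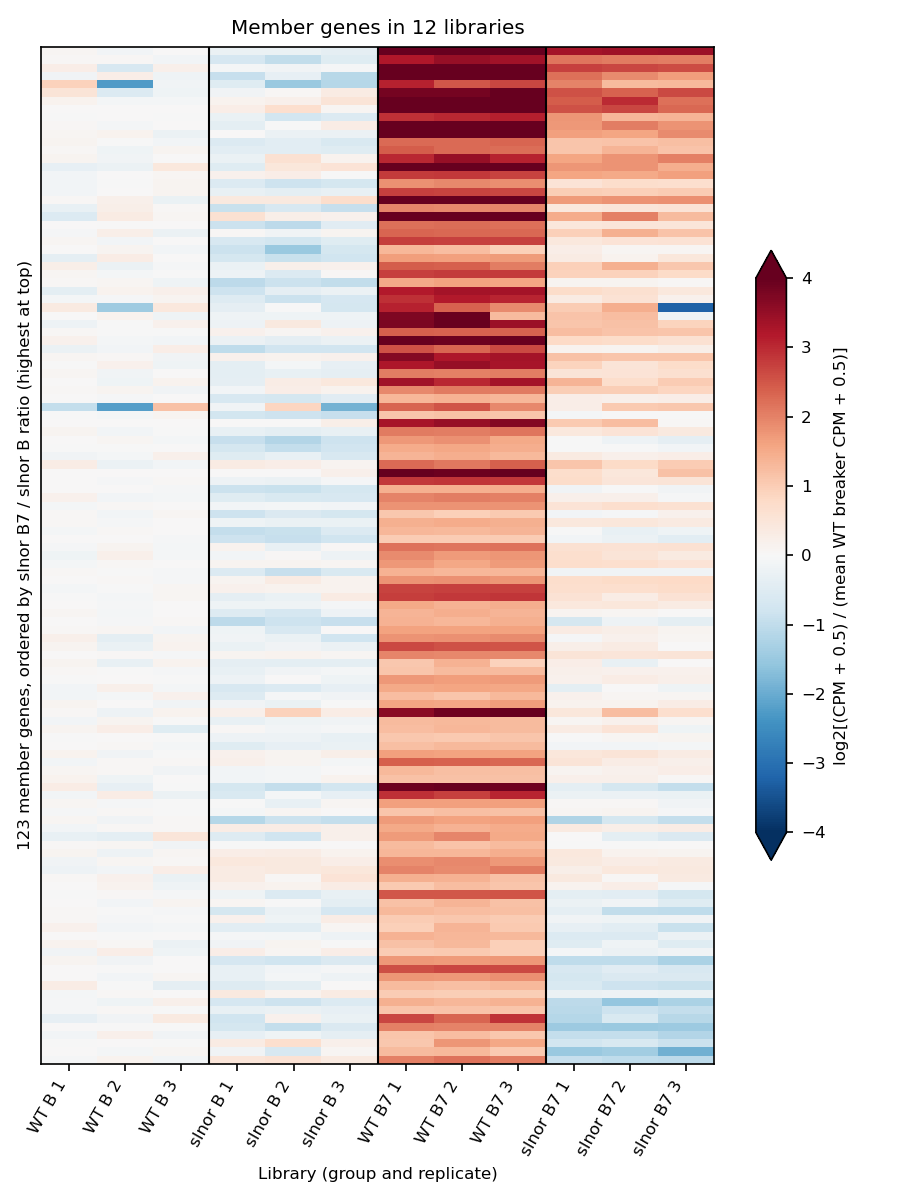
Each row is 1 of the 123 members and each column 1 of the 12 libraries; colour gives log2 of CPM + 0.5 over the mean WT breaker level + 0.5, with colours saturating at 4 and −4. The WT B7 columns are red throughout, while the slnor B7 columns run from red in the top rows (37 members with a ratio of at least 2) to pale or blue in the bottom ones (26 members with a ratio under 1).

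The stage changes of the 2 genotypes are set side by side in the scatter of late risers. It shows where the members lie among the WT late risers.

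**Figure D2:**
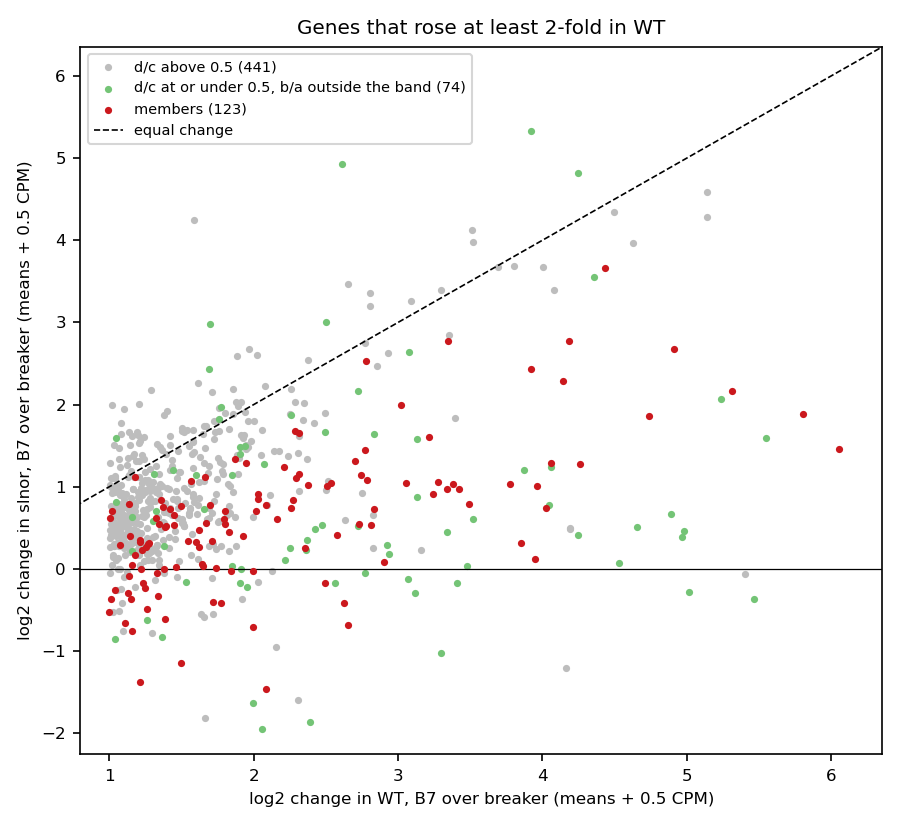
Each point is 1 of the 638 genes at or over 5 CPM in WT at B7 that rose at least 2-fold in WT. The x axis is the log2 change from breaker to B7 in WT and the y axis the same in slnor. Both are from group means + 0.5 CPM. The 123 members (red) lie below the dashed line of equal change, as the selection requires, many of them near 0 on the y axis. The 441 genes with a B7 ratio over 0.5 (grey) lie mostly nearer to the line.

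Across all genes tested, edgeR's quasi-likelihood test at an adjusted p under 0.05 gave the background for these counts. At B7 all 123 members were called lower in slnor, where 27.4% of all genes tested were called lower, and 0 were called higher (28.5% of all genes). In WT all 123 were called higher at B7 than at breaker, where the share of all genes was 33.2%, and 0 were called lower (32.1%). The 3 WT B7 values lay above the 3 slnor B7 values for all 123 members (23.3% of all genes tested) and above the 3 WT breaker values for all 123 (34.5%). The selection used these contrasts, so nothing is read from these counts.

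At breaker the members differed among themselves within the 0.5 to 1.5 band. The median slnor to WT ratio was 0.871 (range 0.509 to 1.42), with 45 members under 0.8, 66 between 0.8 and 1.2, and 12 above 1.2. This median was 1.11 over all 12305 genes tested at the same WT level and 1.46 over the 441 other WT late risers. By edgeR's test 70 members were called lower in slnor at breaker (23.7% of all genes tested) and 5 higher (25.6%), and 48 were not called. The selection bounded this ratio, so the calls are a description and nothing is read from them. Scaling touches these counts. With library totals in place of TMM (a scaling that sets the bulk of genes equal), 51 were called lower and 15 higher. Without the third slnor breaker library 3 were called higher. The shares of all genes above are those of the TMM fit of all 12 libraries and do not apply to these alternative counts. The median log2 change of all genes in slnor at breaker was 0.20 with library totals and 0.02 with TMM, and at B7 it was 0.10 and 0.00. For the 24 members under 1 CPM in WT at breaker, the added 0.5 CPM draws the breaker ratio toward 1, so the band says little about them.

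Between the stages in slnor, 85 members were called higher (26.2% of all genes tested), 14 lower (26%) and 24 were not called. The slnor B7 values lay above all 3 slnor breaker values for 80 members (22.5%). The stage change was called smaller in slnor than in WT (the interaction) for 111 members (20.4%) and larger for 0 (21.8%), and 12 were not called. Their direction was fixed by the selection.

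The mutated gene NOR (Solyc10g006880.3) is no member, and its transcript was present in all 12 libraries. It stood at 935, 930 and 916 CPM in WT and 841, 865 and 959 CPM in slnor at breaker, and at 435, 456 and 443 CPM in WT and 562, 589 and 522 CPM in slnor at B7. The 2 genotypes overlapped at breaker and did not at B7, where slnor was higher. Since a small lesion need not change the amount of transcript, these values do not check the genotype.

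The member with the most counts was ASR1 (Solyc04g071610.4), a member of the abscisic acid, stress and ripening family of small hydrophilic proteins that are abundant in ripe tomato. It stood at 9897, 9428 and 9297 CPM in WT at breaker and at 20572, 22902 and 22784 CPM in WT at B7. In slnor it stood at 7844, 8691 and 8994 CPM at breaker and 10941, 10851 and 10823 CPM at B7. The WT B7 libraries lay far above the other 9, and the slnor B7 libraries lay just above all the breaker libraries. Its WT ratio of B7 to breaker was 2.31 and its slnor ratio 1.28, so 18.8% of the WT increase was seen, and its slnor to WT ratio at B7 of 0.49 is near the limit of selection. The other ASR gene in the table with more than a few counts, ASR2 (Solyc04g071580.3), behaved otherwise, at a mean of 10.2 CPM in WT at breaker, 10.4 in slnor at breaker, 7.18 in WT at B7 and 7.91 in slnor at B7.

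ASR1 weighs on any sum over the members. It made up 64.5% to 77% of the members' counts in a library. The members together took 12400 to 13000 CPM in WT at breaker, 10700 to 12000 in slnor at breaker, 31900 to 34200 in WT at B7 and 14500 to 14700 in slnor at B7. Without ASR1 the sums were 3000 to 3140, 2600 to 2970, 11200 to 11300 and 3680 to 3790 CPM in the same order. With or without it, the WT B7 sums lay above all others and the slnor B7 sums above the breaker sums of both genotypes.

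AOX1a (Solyc08g075540.5.1) encodes the alternative oxidase, the mitochondrial enzyme that passes electrons to oxygen without the cytochrome pathway and whose activity is linked to the respiratory climacteric. It stood at 124, 130 and 137 CPM in WT and 145, 145 and 145 CPM in slnor at breaker. At B7 it stood at 855, 876 and 869 CPM in WT and 208, 208 and 217 CPM in slnor. The slnor breaker values were slightly above the WT breaker values and the slnor B7 values above both, but none came near WT at B7. The WT ratio of B7 to breaker was 6.64 and the slnor ratio 1.45, and slnor showed 8.99% of the WT increase. PTOX (Solyc11g011990.2), the plastid terminal oxidase related to it, changed far less, with a WT ratio of 1.22. Its means were 126 CPM in WT and 128 in slnor at breaker, and 155 in WT and 124 in slnor at B7. The direction was alike: edgeR's test called PTOX higher at B7 in WT (33.2% of all genes tested) and lower in slnor at B7 (27.4%). Between the stages in slnor it was not called.

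Heat-shock genes were among the named members. HSP21 (Solyc03g082420.3), a plastid small heat-shock protein gene, stood at 518, 477 and 494 CPM in WT and 561, 441 and 613 CPM in slnor at breaker. At B7 it stood at 1009, 1038 and 1009 CPM in WT and 450, 442 and 454 CPM in slnor. The genotypes overlapped at breaker, and at B7 every slnor library was below every WT library of either stage. Its WT ratio was 2.05 and its slnor ratio 0.833.

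VIS1 (Solyc05g014280.4), a small heat-shock protein gene of tomato named for its effect on the viscosity of fruit juice, stood at 85.7, 76.3 and 79.1 CPM in WT and 70.3, 54.5 and 83.3 CPM in slnor at breaker. At B7 it stood at 540, 562 and 566 CPM in WT and 154, 153 and 137 CPM in slnor. It rose in both genotypes with no overlap between stages, by a ratio of 6.88 in WT and 2.13 in slnor. FtsH6 (Solyc02g081550.3), a gene for a membrane protease of plastids that in Arabidopsis controls the turnover of HSP21, stood at 25.5, 24.7 and 25.4 CPM in WT and 13.7, 12.1 and 18.2 CPM in slnor at breaker, and at 117, 121 and 118 CPM in WT and 35, 35.8 and 35.1 CPM in slnor at B7. The genotypes did not overlap at either stage, and slnor at B7 stood above WT at breaker. Its ratio was 4.63 in WT and 2.36 in slnor.

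ER24 (Solyc01g104740.3) is an ethylene-responsive gene that encodes a multiprotein bridging factor, a transcriptional coactivator. It stood at 18.2, 15.4 and 17.1 CPM in WT and 10.4, 9.51 and 11.2 CPM in slnor at breaker, and at 57.3, 55.9 and 57.1 CPM in WT and 8.18, 8.09 and 6.82 CPM in slnor at B7. Here the slnor libraries fell between stages with no overlap (ratio 0.754) while WT rose (ratio 3.28), so that WT at B7 was 6.99 times slnor.

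The lowest slnor to WT ratio at B7 of any member, 0.04, belonged to Solyc06g076540.1, 1 of 4 identifiers in a cluster of small heat-shock genes on chromosome 6. It stood at 7.37, 4.64 and 5.84 CPM in WT and 3.5, 2.85 and 3.39 CPM in slnor at breaker, and at 98.2, 104 and 95.4 CPM in WT and 4.43, 3.47 and 2.82 CPM in slnor at B7. The slnor libraries of the 2 stages overlapped, and the WT ratio was 15.5. Its neighbour Solyc06g076560.2 missed selection on the WT ratio (1.98), with means of 417 CPM in WT and 288 in slnor at breaker, and 827 in WT and 263 in slnor at B7. Solyc06g076520.1 and Solyc06g076570.4 of the cluster had WT ratios of 1.52 and 1.91. Their slnor to WT ratios were 0.87 and 0.387 at breaker, and 0.516 and 0.288 at B7. Whether genes of the cluster share reads as copies was not tested, so how counts were split between them is uncertain.

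**Figure D3:**
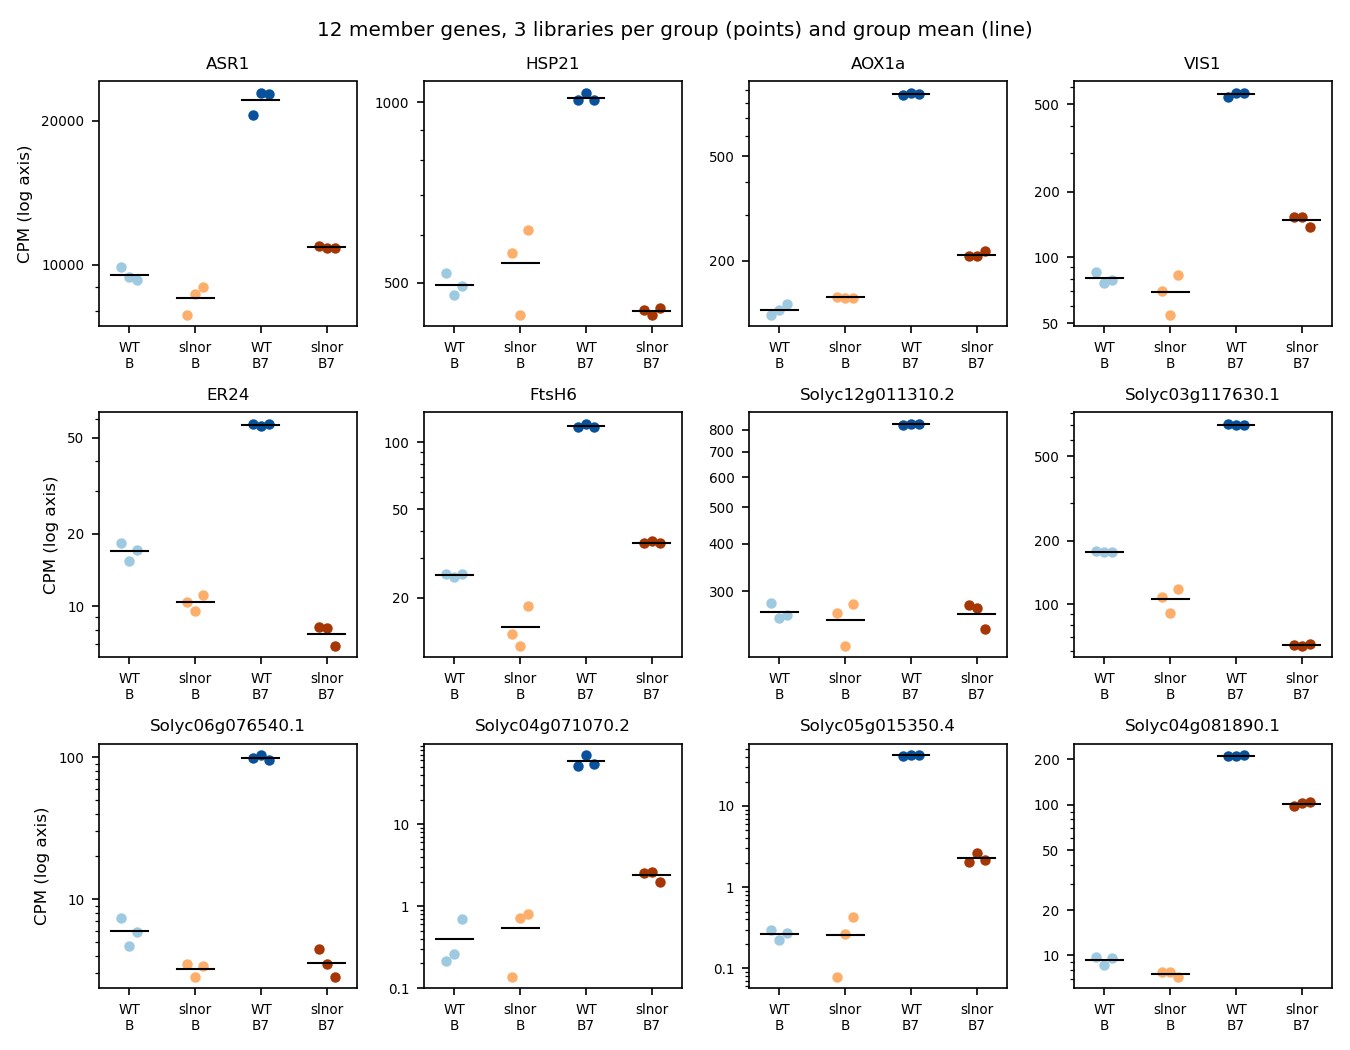
CPM on log axes for 12 members, 1 panel each, with the 3 libraries of WT and slnor at breaker (B) and breaker plus 7 days (B7) as points and the group mean as a line. In every panel the 3 WT B7 points lie above the 9 others, while the slnor B7 points lie below the breaker points of both genotypes for ER24 and Solyc03g117630.1 and above them for AOX1a and VIS1, among others.

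VIS1, ER24, FtsH6, AOX1a and Solyc06g076540.1 were put on the list of named genes after their values were seen, so they give no independent support to one another. For comparison, 15 genes grouped as heat-shock genes were gathered, also after values were seen. The 5 members among them are HSP21, VIS1, FtsH6, ER24 and Solyc06g076540.1. FtsH6, a protease gene, and ER24, a coactivator gene, encode neither heat-shock proteins nor heat-stress transcription factors. Of the other 10, edgeR's test called 9 higher at B7 in WT (33.2% of all genes tested), and 8 lower and 1 higher in slnor at B7 (27.4% and 28.5%). Their WT ratios ran from 1.04 to 2.22 with a median of 1.52 (0.994 over all genes tested), and their median slnor to WT ratio at B7 was 0.551 (1.06 over all genes tested). Already at breaker, 11 of all 15 were called lower in slnor and 2 higher (23.7% and 25.6% of all genes tested). In HSP90 (Solyc06g036290.3) the slnor to WT ratio was 0.169 at breaker and 0.158 at B7, with a WT ratio of 1.16. Only HSFA3 (Solyc09g009100.4), a heat-stress transcription factor gene, had a WT ratio over 2 among these 10, and it stood at means of 47.2 CPM in WT and 48.4 in slnor at B7. HSC80 (Solyc07g065840.2), a gene of the Hsp90 chaperone family, was the 1 called higher, at means of 1632 CPM in WT and 2507 in slnor at B7. The set was not complete: HSFA2 (Solyc08g062960.4), on the list of stress genes below, was left out of the 15 and is not a WT late riser.

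**Figure D4:**
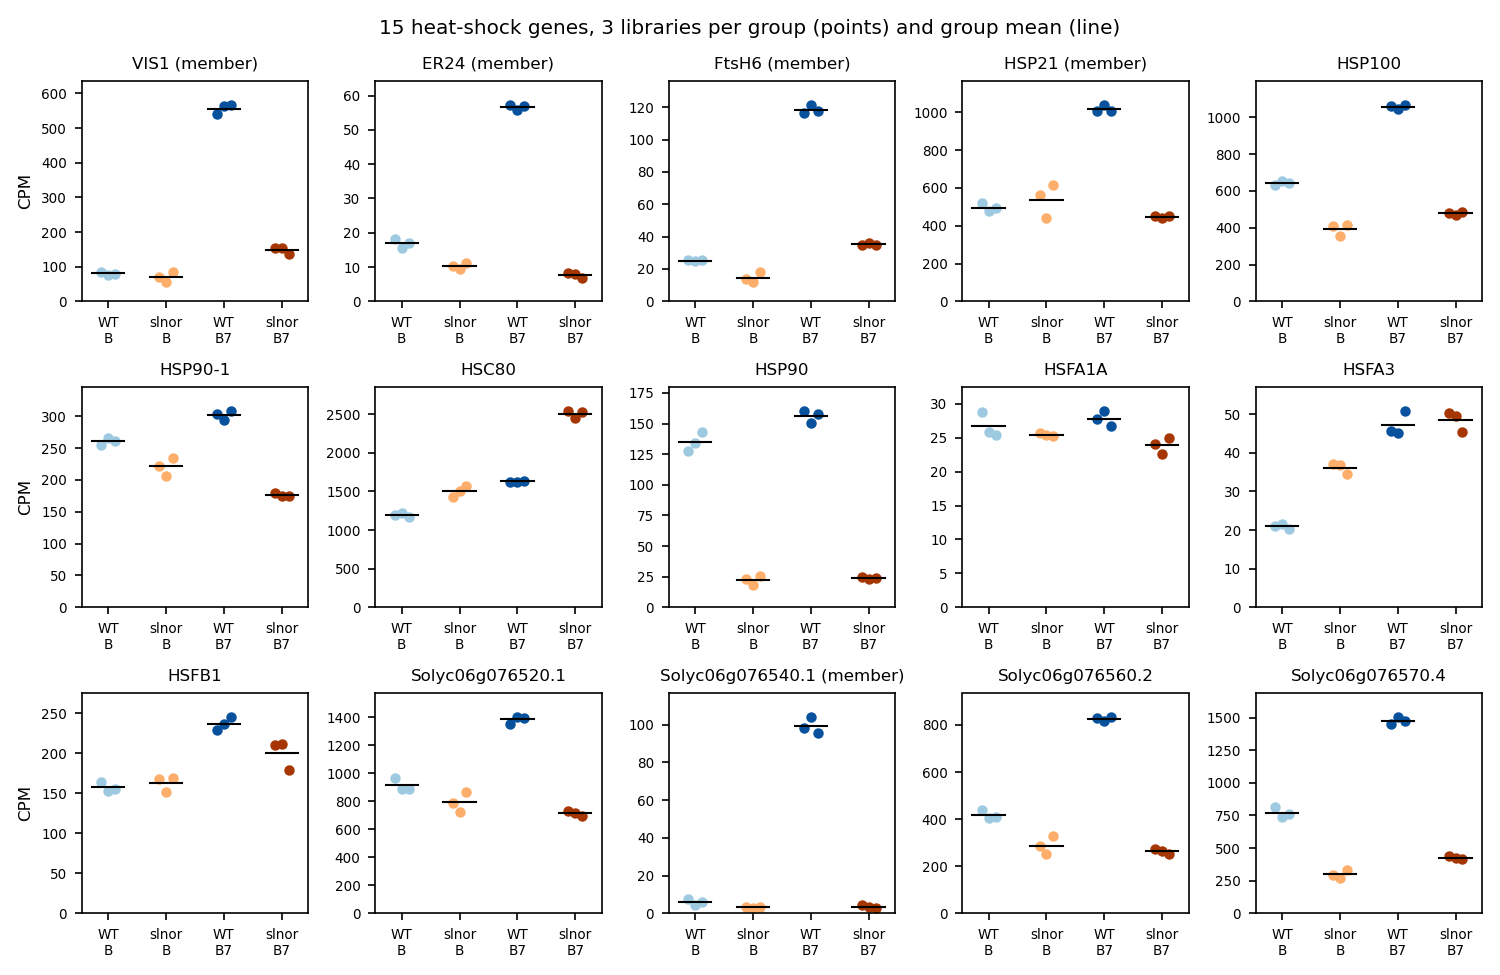
CPM on linear axes from 0 for the 15 genes grouped as heat-shock genes, FtsH6 and ER24 included. Each has 1 panel, with the 3 libraries of each group as points and the group mean as a line. The 5 members are marked; HSP21 stands near 449 CPM in slnor against 1019 CPM in WT at B7, whereas HSFA3 is at 48.4 against 47.2 CPM and HSC80 is higher in slnor.

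Most of the other members have no name in the sources used here and are given by identifier. Solyc12g011310.2 stood at 278, 255 and 260 CPM in WT and 263, 215 and 278 CPM in slnor at breaker, and at 822, 827 and 831 CPM in WT and 275, 271 and 238 CPM in slnor at B7. Apart from WT at B7, its 3 other groups overlapped, and slnor showed 1.72% of the WT increase. Solyc03g117630.1 stood at 180, 176 and 176 CPM in WT and 108, 90.5 and 118 CPM in slnor at breaker, and at 713, 701 and 704 CPM in WT and 64.3, 63.4 and 64.9 CPM in slnor at B7. None of its 4 groups overlapped, and slnor fell (ratio 0.61) where WT rose (ratio 3.98). The remaining members among the 10 with the most counts in WT at B7 were Solyc06g053480.3, Solyc01g091270.3, Solyc01g105120.4 and Solyc06g008130.4, whose slnor to WT ratios at B7 were 0.372, 0.467, 0.431 and 0.303.

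The largest WT ratio was that of Solyc04g071070.2, at 66.4. It stood at 0.217, 0.261 and 0.705 CPM in WT and 0.136, 0.717 and 0.796 CPM in slnor at breaker, and at 51.9, 70.6 and 54.1 CPM in WT and 2.57, 2.63 and 1.95 CPM in slnor at B7. Both genotypes were higher at B7 without overlap, and WT at B7 was 20.6 times slnor. Solyc05g015350.4 (WT ratio 55.9) stood at 0.296, 0.226 and 0.271 CPM in WT and 0.0778, 0.262 and 0.434 CPM in slnor at breaker, and at 41, 42.9 and 42.7 CPM in WT and 2.03, 2.66 and 2.18 CPM in slnor at B7. Both genotypes were again higher at B7 without overlap and WT was above slnor there, with the genotypes overlapping at breaker. Solyc12g150125.1, Solyc09g083390.3 and Solyc12g056675.1 followed with offset ratios of 39.8, 30.1 and 26.7. For Solyc12g150125.1 no count was found in any WT breaker library, and its WT B7 mean of 19.4 CPM was at least 328-fold higher than a floor of 3 counts in the shallowest of them, a bound that covers counting error only.

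After Solyc06g076540.1, Solyc04g071070.2 and Solyc05g015350.4, the lowest slnor to WT ratios at B7 were 0.0834 in Solyc06g050440.3 and 0.0916 in Solyc03g117630.1. The first of these stood at 8.08, 6.15 and 9.51 CPM in WT and 0.108, 0.38 and 0.115 CPM in slnor at B7.

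Members also differed in what slnor did between the stages. The highest slnor ratio of B7 to breaker was 12.7, in Solyc04g081890.1. It stood at 9.84, 8.65 and 9.57 CPM in WT and 7.72, 7.78 and 7.18 CPM in slnor at breaker, and at 212, 209 and 215 CPM in WT and 98.2, 102 and 104 CPM in slnor at B7. Its 2 genotypes rose together and slnor showed 46.4% of the WT increase, so it qualified as a member through the gap at B7 rather than through a missing rise. Solyc10g084600.2 was next with a slnor ratio of 6.84, at 20.5, 19.6 and 19.1 CPM in slnor against 43.4, 53.1 and 48.1 CPM in WT at B7.

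The lowest slnor ratios were those of Solyc10g050990.2 (0.362) and Solyc05g005910.4 (0.385). Solyc10g050990.2 stood at 5.82, 6.69 and 5.59 CPM in WT and 8.58, 9.2 and 7.96 CPM in slnor at breaker, and at 26, 29.1 and 26.5 CPM in WT and 2.93, 2.76 and 2.65 CPM in slnor at B7. The genotypes changed places: slnor was above WT at breaker and below every other group at B7. Solyc05g005910.4 stood at 18.9, 17.9 and 19.9 CPM in WT and 17.2, 11.9 and 19.8 CPM in slnor at breaker, and at 46.3, 47.2 and 40 CPM in WT and 6.43, 6.84 and 4.65 CPM in slnor at B7. Its genotypes overlapped at breaker and stood apart at B7.

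Some members were neighbours in identifier order, which follows position along a chromosome. Taking members next or next but 1 to each other, 16 members fell into 7 runs, 2 of which held 3 members. On chromosome 5, Solyc05g015350.4, Solyc05g015360.2 and Solyc05g015370.3 stood at mean levels of 42.2, 6.67 and 14.8 CPM in WT at B7, and WT was 15.3, 5.08 and 6.41 times slnor. The identifier that follows them, Solyc05g015380.2, had the same order of groups, at 30.9, 30.5 and 29.9 CPM in WT and 4.85, 4.66 and 4.4 CPM in slnor at B7, but missed the breaker band at 0.486. On chromosome 12, Solyc12g056674.1, Solyc12g056675.1 and Solyc12g056678.1 stood at means of 5.13, 15.3 and 5.39 CPM in WT at B7, and WT was 6.19, 8.19 and 5.75 times slnor. The third rests on few libraries, with 7.12, 8.2 and 0.853 CPM in WT and 0.743, 0.829 and 0 CPM in slnor at B7, so its groups all but met. Their implied lengths of 1240, 1290 and 1350 nucleotides are alike, and whether the 3 share reads as copies was not tested.

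Solyc10g047040.3 lies next to XYL1 (Solyc10g047030.3), a xylosidase gene of the cell wall. XYL1 stood at 2.21, 2.21 and 1.72 CPM in WT and 0.253, 0.892 and 0.622 CPM in slnor at breaker, and at 121, 115 and 119 CPM in WT and 3.5, 2.21 and 2.67 CPM in slnor at B7. XYL1 had a larger WT ratio (46.7) than its neighbour (5.12) but was too low in slnor at breaker (ratio 0.428) to be a member. The neighbour stood at 14.6, 14.3 and 13.8 CPM in WT and 3.62, 3.02 and 2.79 CPM in slnor at B7. Where neighbouring genes overlap on opposite strands, the split of reads between them depends on the strand setting, which no source used here gives.

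Identifiers not anchored to a chromosome stood out by number. Chromosomes 1 to 12 held 5 to 15 members each, from 0.564% to 1.47% of their genes tested at the WT level of selection. The unanchored set (chromosome 00) held 7 members of 13 such genes, or 53.8%. All 13, members or not, have identifiers that begin with Solyc00g500. This group was singled out after its values were seen. Solyc00g500063.1 had the highest count, at 14.3, 7.28 and 13.6 CPM in WT and 11, 10.54 and 11.2 CPM in slnor at breaker, and at 231, 214 and 219 CPM in WT and 80.4, 78.1 and 73.6 CPM in slnor at B7. Its groups overlapped at breaker and stood apart at B7 (WT ratio 18.1, slnor ratio 6.82). Other unanchored members varied widely between replicates: Solyc00g500200.1 stood at 48.9, 29.6 and 21.3 CPM in WT and 11.4, 15.5 and 0.115 CPM in slnor at B7, and Solyc00g500039.1 at 5.52, 2.02 and 25.7 CPM in WT at breaker.

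The same identifier series holds 113 further genes that were tested but lay under 5 CPM in WT at B7, so none of them was open to selection. Of these 113, edgeR's test called 66 higher and 2 lower at B7 in WT, where 33.2% and 32.1% of all genes tested were called. In slnor at B7 it called 35 lower and 2 higher than WT (27.4% and 28.5% of all genes). Between the stages in slnor it called 24 higher and 3 lower (26.2% and 26%), and at breaker 4 higher and 0 lower in slnor (25.6% and 23.7%). The median WT ratio of the 113 was 1.79, with 47 at 2 or more, and their median slnor to WT ratio at B7 was 0.695, with 87 under 1. Over all genes tested these medians were 0.994 and 1.06. These genes have few counts, the added 0.5 CPM draws their ratios toward 1, and a gene that passed the low-count filter only through WT at B7 had to differ, so the counts are a description.

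**Figure D5:**
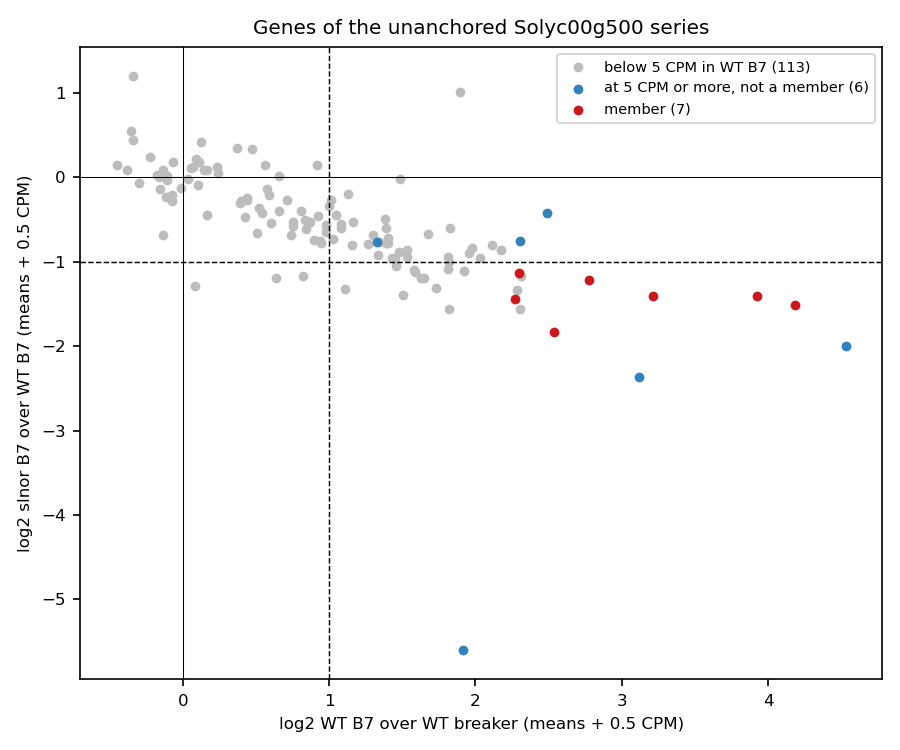
Each point is 1 of 126 unanchored genes tested; the x axis is log2 of the WT ratio of B7 to breaker and the y axis log2 of the slnor to WT ratio at B7, both from group means + 0.5 CPM, and dashed lines mark the limits of selection. The 7 members (red) lie in the lower right corner, and the 113 genes under 5 CPM in WT at B7 (grey) spread from the origin toward it.

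Properties that the selection did not use were set beside those of other genes, with no test. The members' median implied length was 1270 nucleotides, against 1670 over the 12305 genes tested at that level. Their replicate coefficient of variation had a median of 3.91% in WT at B7 (3.71% over those genes) and 8.61% in slnor at B7 (4.13%), where their levels are lower by selection. Of 369 member values per group, 30 were under 10 counts in WT at breaker, 29 in slnor at breaker, 0 in WT at B7 and 5 in slnor at B7.

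The members were also looked up among genes of the better known ripening pathways. Of 158 genes of 16 lists (ripening transcription factors, ethylene, carotenoids, cell wall, cuticle, flavonoids, volatiles, glycoalkaloids, sugars, chlorophyll breakdown, abscisic acid, light harvesting, the ASR cluster and stress genes), 12 were WT late risers and 2 were members, ASR1 and HSP21. These are 7.59% and 1.27% of the listed genes, and over all genes tested 3.18% were late risers and 0.613% members. The lists were chosen with earlier results known, and nothing is read from these shares. The 12 late risers of the lists included 3 that were low in slnor already at breaker, namely XYL1, the endoglucanase gene CEL2 and the glycoalkaloid transporter gene GORKY. No listed gene of carotenoid or flavonoid synthesis was a late riser at all.

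Near the limits of selection, values lay close on both sides, least so at the upper edge of the breaker band. Just inside and just outside the level limit stood 5.02 (Solyc00g500080.1) and 4.86 CPM (Solyc02g072190.4). For the WT ratio they were 2.001 (Solyc02g079170.3) and 1.98 (Solyc06g076560.2), and for the slnor to WT ratio at B7, 0.496 (Solyc10g085100.2) and 0.501 (Solyc07g053140.3). At the lower edge of the breaker band they were 0.509 (Solyc00g500083.1) and 0.4999 (Solyc12g006620.2), and at the upper edge 1.42 (Solyc09g091000.4) and 1.501 (Solyc02g062670.3). Failing only 1 limit were 115 genes for the level, 77 for the WT ratio, 228 for the ratio at B7, 39 for the lower edge and 35 for the upper edge.

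Marker genes of fruit tissues moved with the groups. The summed level of 4 light-harvesting genes (green tissue) was 739 to 795 CPM in WT and 648 to 707 CPM in slnor at breaker, and 205 to 212 CPM in WT and 257 to 266 CPM in slnor at B7. The 5 cuticle genes measured (epidermis) summed to 650 to 684 and 277 to 288 CPM at breaker, and to 155 to 157 and 303 to 323 CPM at B7. The seed storage gene Solyc06g060840 stood at 64.7 to 71.4 and 6.82 to 7.94 CPM at breaker, and at 13.5 to 15.5 and 0.181 to 0.691 CPM at B7. In every list no gene was at 0 in all libraries. Their part in the members' values was not tested, and in bulk fruit RNA fewer cells of a type and less RNA per cell cannot be told apart.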

How the data were processed

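The authors deposited raw counts per gene (whole numbers, 12 libraries) and 1 table per library in a unit not named there. The unit of these deposited tables was inferred to be FPKM: the gene length implied by count and value differed by at most 0.42% between libraries for 7290 genes with 1000 counts or more in each. FPKM served only for implied lengths. The submitters' processing notes list edgeR, HISAT, StringTie and UMI-tools but give neither version nor role. Not given in the sources used here were genome build, annotation, kit, strand, and whether counts are reads or collapsed molecules.

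Members were found on CPM by library total as stated at the start of the report. Tests used edgeR glmQLFit and glmQLFTest (edgeR 4.0.16 in R 4.3.3), TMM scaling and filterByExpr, in 1 fit of 12 libraries over 20070 genes with Benjamini-Hochberg adjustment at 0.05. TMM factors ran from 0.947 to 1.09. Scripts were tested on simulated data. No replicate pair was a duplicate (chi-square per degree of freedom 4.66 to 14.2 over 12 pairs).

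The members, lists and names were chosen with earlier results of these data known. Genes were named by rule: list members, the 10 with most counts in WT at B7, the 5 highest WT ratios, the 5 lowest ratios at B7, runs of neighbours, extremes of the slnor change and values at the limits. The files pair no names with identifiers. Names came from published nomenclature, 177 pairs in all, of which 144 symbols are in the RefSeq table of assembly SLM_r2.1, 137 on the same chromosome and 133 in the same order along it. The 4 heat-shock identifiers on chromosome 6 were assigned as a group. Sequences were not used here. Alternatives were other scalings, DESeq2 1.42.0, no low-count filter, a replicate block, other limits and leaving out each library.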

Additional observations from a re-analysis of the deposited data

Results flagged for a closer look

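The stage change from breaker to B7 differed between the genotypes for 111 of the 123 members by edgeR's interaction test. It was smaller in slnor each time (20.4% of all genes tested) and larger for 0 (21.8%). This is a difference between groups whose direction the selection fixed, so it is given as a description. No formal outlier test was made within groups, since each holds 3 libraries.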

How the results depend on the processing

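With other limits the 123 members became 78 (WT ratio of at least 3) or 57 (ratio at B7 of at most 0.33), since these sets are subsets by construction. Other offsets, scalings and limits gave 95 to 137, with TMM giving 137, of which 116 were shared. Leaving out 1 library at a time gave 117 to 127 members, and 96 of the 123 were kept in all 12 sets. Members called higher in slnor at breaker numbered 5, against 15 with library totals alone and 3 to 6 on leaving out 1 library, with 3 on leaving out the third slnor breaker library. The other call counts stayed within 1.5 times under every alternative. Shares of all genes called are given only for the main TMM fit, so call counts under alternatives have none beside them. Of 364 recomputed B7 ratios of 26 named members, 28 moved by over 1 SD and 0 reversed, and the largest was 0.502.

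The replicate numbers did not pair the libraries (correlations of same-numbered libraries −0.07 to 0.07 over 18 pairs, with 0 libraries closest to their own number in all groups). With the replicate block, 69 members were called lower at breaker in place of 70 and 108 by the interaction in place of 111. Depth limits the members with under 10 counts at breaker, whose breaker ratios rest on the offset.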
